A study of Mus musculus with 6 samples.

Results

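The NF-kB subunits and inhibitors are described here in muscle RNA of control mice and of mice with a muscle-directed deletion of Igf2, the gene of insulin-like growth factor 2. They are 10 genes of the 54532 in the deposited table, taken as the rows whose gene symbol equals Rela, Relb, Rel, Nfkb1, Nfkb2, Nfkbia, Nfkbib, Nfkbie, Nfkbiz or Tnfaip3. The set was picked on measured values, because Nfkbia was higher in the knockout libraries, so the genotype differences of these 10 genes are given as a description with no test. All 10 had enough counts to be among the 14867 genes that passed the low-count filter. The animals were C57BL/6 mice in which both Igf2 alleles carried loxP sites beside exon 2 (Igf2f/f). The 3 Igf2 cKO samples came from Mck-Cre+; Igf2f/f mice, in which the muscle creatine kinase promoter drives Cre recombinase in striated muscle fibres, so that other cell types of the tissue keep an intact gene. The 3 controls were Igf2f/f littermates without Cre, and all 6 samples therefore shared the floxed alleles. Muscle, age and sex are absent from the labels, which also do not say whether each sample is 1 animal or a pool. Any p-value below measures only the spread between these 3 samples per group.

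NF-kB is a family of transcription factors made of paired subunits. In resting cells the pairs are held in the cytoplasm by IkB proteins. Signals from cytokine and Toll-like receptors activate IkB kinases, IkB is marked for degradation, and the freed pairs enter the nucleus and switch on genes of inflammation and cell survival, among them the genes of their own inhibitors. In skeletal muscle the pathway is known for its part in inflammation and wasting. Transcription of Nfkbia is also known to be induced by glucocorticoid hormones.

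The targeted gene was checked first. Igf2 was counted 60, 43 and 39 times in the controls, against 33, 37 and 42 times in Igf2 cKO (libraries are given in replicate order here and below). The groups overlapped, and the log2 fold change of -0.31 ± 0.25 (SE) did not pass the test (edgeR quasi-likelihood F test, adjusted p = 0.751), so at this depth the counts of Igf2 do not separate the library labels. Total counts lay between 16184371 and 17905203 per library. Skeletal muscle fibre markers, led by Acta1 and Pvalb, summed to 55142 to 63745 FPKM (the authors' level per gene length and library size) in controls and 46942 to 56204 FPKM in Igf2 cKO libraries. Across all genes, 27 of 14867 (0.182%) were called higher and 10 (0.0673%) lower in Igf2 cKO at an adjusted p under 0.05. At an unadjusted p under 0.05 the shares were 5.11% higher and 4.82% lower. The groups did not overlap for 7.83% of genes on the higher side and 7.67% on the lower side. DESeq2 called 1.35% of its 15090 genes and limma-voom called 0.229% of 14867.

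Nfkbia had the highest level per gene length (FPKM) of the 10 genes and was the one for which the set was chosen. It encodes IkB alpha, the inhibitor that is degraded within minutes of a signal and made again by NF-kB itself. Its gene (ENSMUSG00000021025, chr12:55489410-55492647, minus strand, GRCm38) has 6 exons and codes for 314 residues in the GENCODE M21 annotation. RefSeq promoter windows (GRCm38.p6, the 250 bases before an annotated transcription start) were found for 7 of the 10 genes. The 4 windows shown end at or upstream of the deposited gene start, and are printed to show where letters like those NF-kB recognises lie. They were read 5′ to 3′ on the strand of the gene. Capitals mark matches to the NF-kB decamer consensus or to its shorter outline GGNNNTTCC, searched on both strands.
Nfkbia, chr12:55492648-55492897, minus strand: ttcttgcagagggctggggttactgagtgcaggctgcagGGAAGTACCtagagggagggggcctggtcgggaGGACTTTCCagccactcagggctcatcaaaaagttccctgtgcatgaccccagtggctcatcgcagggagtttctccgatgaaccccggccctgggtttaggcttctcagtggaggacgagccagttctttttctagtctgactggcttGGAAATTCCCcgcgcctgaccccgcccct
Nfkb2, chr19:46304487-46304736, plus strand: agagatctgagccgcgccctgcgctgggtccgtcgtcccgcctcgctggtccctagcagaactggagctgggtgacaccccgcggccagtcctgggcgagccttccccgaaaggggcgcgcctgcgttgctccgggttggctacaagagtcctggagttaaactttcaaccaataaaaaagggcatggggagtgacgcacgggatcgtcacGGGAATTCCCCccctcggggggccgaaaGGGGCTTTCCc
Nfkbie, chr17:45555450-45555699, plus strand: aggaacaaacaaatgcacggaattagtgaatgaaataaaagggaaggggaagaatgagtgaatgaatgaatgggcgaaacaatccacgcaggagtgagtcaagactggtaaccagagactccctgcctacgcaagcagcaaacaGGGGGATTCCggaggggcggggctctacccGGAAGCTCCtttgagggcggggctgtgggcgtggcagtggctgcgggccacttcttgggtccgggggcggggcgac
Rel, chr11:23770970-23771219, minus strand: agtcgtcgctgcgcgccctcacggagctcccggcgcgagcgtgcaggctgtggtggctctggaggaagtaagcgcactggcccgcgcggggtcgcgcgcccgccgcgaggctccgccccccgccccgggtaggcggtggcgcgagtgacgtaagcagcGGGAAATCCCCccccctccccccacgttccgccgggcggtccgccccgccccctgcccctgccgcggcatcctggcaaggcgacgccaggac
The Nfkbia window holds 1 decamer, GGAAATTCCC, from 29 to 20 bases before the start, and further outline matches from 178 to 170 (GGACTTTCC) and from 211 to 203 (GGAAGTACC). The Nfkb2 window holds a pair of overlapping decamers from 39 to 29 bases before the start and another from 11 to 2. The Nfkbie decamer, GGGGGATTCC, lies from 106 to 97 bases before the start, with an outline match from 76 to 68. Rel has a pair of overlapping decamers from 92 to 82. The last base of the Rel window is also the first base of the deposited gene. Of 32851 RefSeq windows of this length, 3.9% hold a decamer and 15.7% hold the outline, so the outline alone is frequent. The letters AGAACA, one side of the glucocorticoid receptor's site and present in 16.1% of windows, were not found in the Nfkbia window. The windows of Rela and Nfkbib hold neither the decamer nor the outline. However, the Rela window reaches into the deposited gene and the Nfkbib window lies inside it, so sequence upstream of the deposited Nfkbib start was not searched. The Tnfaip3 windows and further Nfkb2 windows hold matches but reach into the annotated gene and are not printed. A match is a description of letters and shows no binding.

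Nfkbia stood at 41.4, 47.2 and 33.8 CPM (counts scaled to a common library size with TMM factors) in the controls. The Igf2 cKO libraries stood at 89.4, 87.7 and 97.9 CPM. Every Igf2 cKO library was above every control library, and the lowest Igf2 cKO value exceeded the highest control value by more than the whole range of the controls. The means were 40.8 ± 6.71 (SD, n = 3) and 91.7 ± 5.44 CPM (SD, n = 3), a 2.24-fold difference. The log2 fold change was 1.17 ± 0.13 (SE), with a 95% interval from 0.87 to 1.46, and intervals below are also at 95%. In the authors' deposited table, which compares 1 Igf2 cKO library with the control of the same number, the log2 fold changes of Nfkbia were 1.11, 0.89 and 1.53. Leaving out each library in turn gave log2 fold changes between 1.05 and 1.27, the lowest without control replicate 3. Among the 10 genes, Nfkbia was the 1 called higher (background 0.182%) and 0 were called lower (background 0.0673%), and since the set was chosen on this contrast nothing is read from that count. In bulk tissue, fewer cells of a type and less RNA per cell cannot be told apart, and this holds for every value here.

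**Figure D1:**
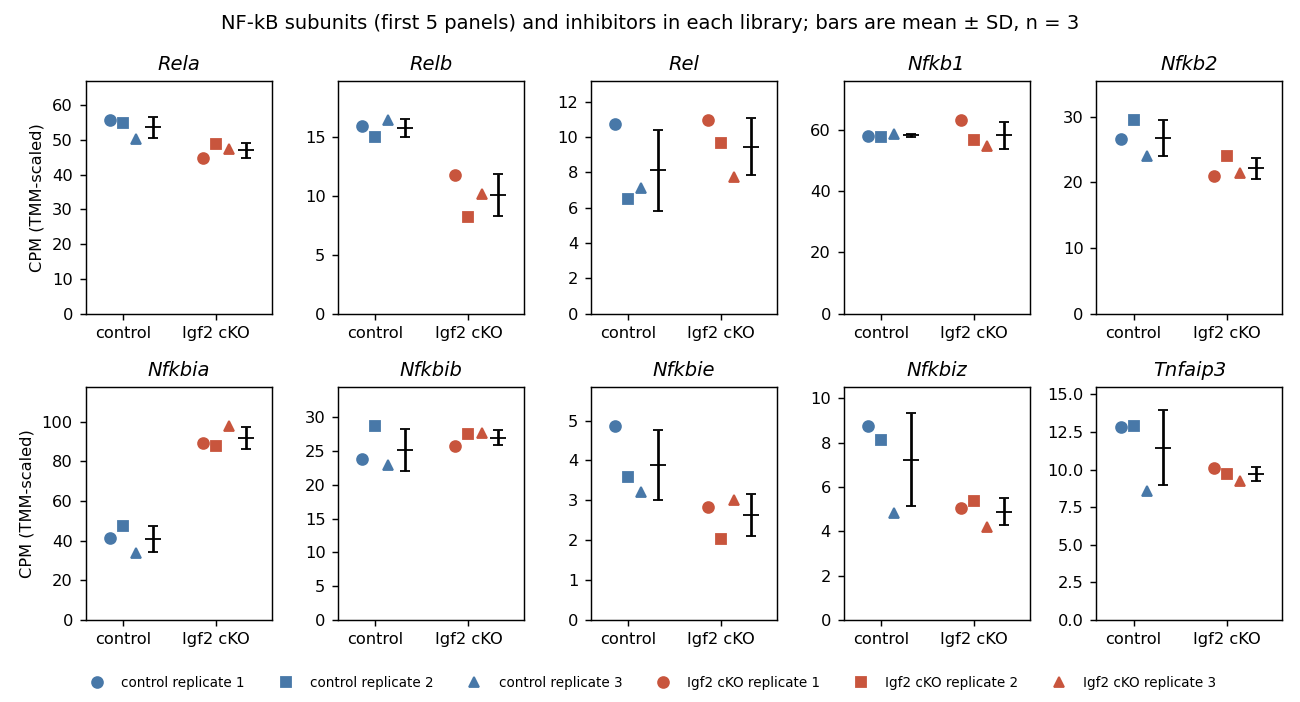
Expression of the 10 NF-kB subunit and inhibitor genes in each library, in CPM scaled by TMM library sizes, with each vertical axis starting at 0. Points are libraries, coloured by genotype and shaped by replicate number, and bars are means ± SD (n = 3). The Nfkbia points of the Igf2 cKO libraries lie between 87.7 and 97.9, above the controls at 33.8 to 47.2.

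The other cytoplasmic inhibitors differed less between the genotypes, Nfkbib upwards and Nfkbie downwards. Nfkbib encodes IkB beta, which is degraded more slowly and is not remade by NF-kB in the way IkB alpha is. It stood at 23.8, 28.7 and 22.9 CPM in the controls, against 25.8, 27.5 and 27.7 CPM in Igf2 cKO libraries. The groups overlapped, and the log2 fold change was 0.10 ± 0.11 (SE, with an interval of -0.15 to 0.36). Nfkbib (chr7:28758251-28767512, minus strand) overlaps Sirt2 on the other strand, which had 1669 to 1912 counts per library. Whether counting used strand is not stated in the sources, so reads of these genes cannot be told apart.

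Nfkbie encodes IkB epsilon, an inhibitor that is induced later than IkB alpha after a signal. It stood at 4.86, 3.58 and 3.20 CPM in the controls, against 2.84, 2.04 and 3.01 CPM in Igf2 cKO libraries. All Igf2 cKO values lay below all control values, though control replicate 3 and Igf2 cKO replicate 3 differed by little. The log2 fold change was -0.56 ± 0.26 (SE, with an interval of -1.15 to 0.03), and it was -0.36 without control replicate 1.

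Nfkbiz and Tnfaip3 act elsewhere in the pathway. Nfkbiz encodes IkB zeta, which stays in the nucleus and adjusts the transcription of a subset of NF-kB targets. It stood at 8.76, 8.10 and 4.83 CPM in the controls, against 5.07, 5.38 and 4.19 CPM in Igf2 cKO libraries. The low control replicate 3 overlapped the Igf2 cKO values, and the log2 fold change was -0.57 ± 0.24 (SE, with an interval of -1.13 to -0.02). Tnfaip3 encodes a ubiquitin-editing enzyme that shuts off signalling upstream of the IkB kinases. It stood at 12.9, 12.9 and 8.56 CPM in the controls, against 10.1, 9.70 and 9.21 CPM in Igf2 cKO libraries. Again control replicate 3 was the low library and the groups overlapped, with a log2 fold change of -0.24 ± 0.18 (SE, with an interval of -0.65 to 0.16).

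Among the subunits, Rela and Relb were lower in all 3 Igf2 cKO libraries. Rela encodes the main activating subunit of the canonical pathway. It stood at 55.8, 54.9 and 50.2 CPM in the controls, against 44.7, 48.8 and 47.5 CPM in Igf2 cKO libraries. The groups did not overlap, but the difference was small, with a log2 fold change of -0.19 ± 0.09 (SE, with an interval of -0.40 to 0.02). Relb encodes the activating subunit of the non-canonical pathway, which answers to receptors of lymphoid organ development. It stood at 15.9, 15.0 and 16.5 CPM in the controls, against 11.8, 8.22 and 10.2 CPM in Igf2 cKO libraries. The controls lay close together and every Igf2 cKO library was below them, with means of 15.8 ± 0.755 (SD, n = 3) and 10.1 ± 1.80 CPM (SD, n = 3). The log2 fold change of Relb was -0.65 ± 0.15 (SE, with an interval of -0.99 to -0.31), and between -0.78 and -0.52 with each library left out in turn. In the authors' deposited table the log2 fold changes of Relb were -0.43, -0.86 and -0.69.

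Nfkb2 encodes the precursor that pairs with the Relb protein and is cut to its active form by the non-canonical pathway. It stood at 26.6, 29.6 and 24.04 CPM in the controls, against 21.0, 24.04 and 21.4 CPM in Igf2 cKO libraries. Control replicate 3 and Igf2 cKO replicate 2 were nearly equal, so the groups touched, and the log2 fold change was -0.27 ± 0.11 (SE, with an interval of -0.53 to -0.02). Nfkb2 overlaps Psd on the other strand, which had 45 to 104 counts per library.

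Nfkb1 and Rel did not separate the groups. Nfkb1 encodes the precursor of the usual partner of the Rela protein. It stood at 58.1, 57.7 and 58.7 CPM in the controls, against 63.2, 56.5 and 54.7 CPM in Igf2 cKO libraries. The controls were tight, the Igf2 cKO libraries lay on both sides of them, and the log2 fold change was 0.00 ± 0.09 (SE, with an interval of -0.21 to 0.21). Rel encodes the activating subunit found mostly in lymphoid and myeloid cells. It stood at 10.8, 6.48 and 7.12 CPM in the controls, against 11.0, 9.64 and 7.74 CPM in Igf2 cKO libraries. The groups overlapped widely, and the log2 fold change was 0.22 ± 0.22 (SE, with an interval of -0.30 to 0.73).

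In all, 4 of the 10 log2 fold changes were above 0 and 6 below, while 50.8% of all genes tested were above 0 with a median of 0.0038. The groups did not overlap for 1 gene on the higher side, Nfkbia (background 7.83%), and for 3 on the lower side, Rela, Relb and Nfkbie (background 7.67%). For 7 of the 10 genes, control replicate 3 was the lowest control (Nfkbia, Nfkbib, Nfkbie, Nfkbiz, Nfkb2, Rela and Tnfaip3). The share of all tested genes that were lowest in that control was not computed, so nothing particular to these genes is read from this count. Without control replicate 3 the log2 fold change of Nfkbia was 1.05, that of Tnfaip3 -0.41 and that of Nfkbiz -0.79. With each library left out in turn, Tnfaip3 lay between -0.41 and -0.15 and Nfkbiz between -0.79 and -0.41.

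**Figure D2:**
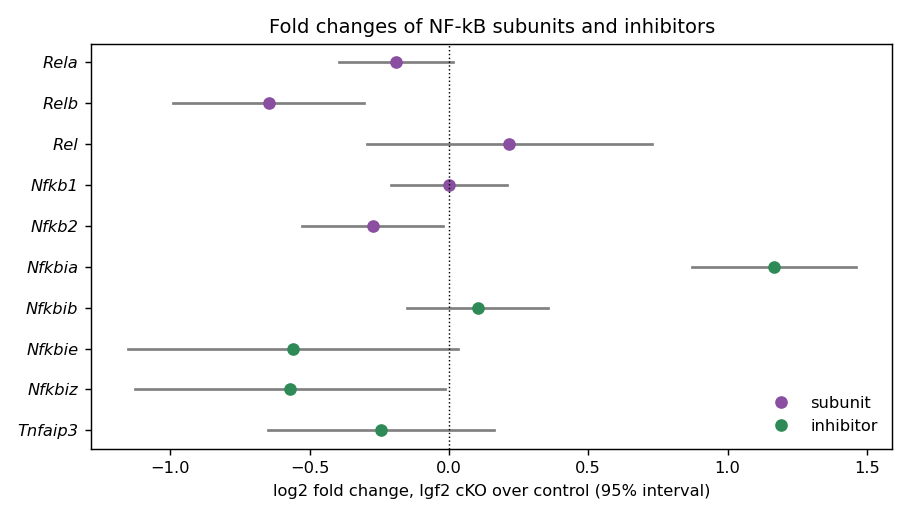
Log2 fold changes, Igf2 cKO over control, of the 5 subunit genes and 5 inhibitor genes, with 95% intervals from the fit across all genes. Nfkbia lies at 1.17, and the other 9 genes lie between -0.65 and 0.22.

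Levels were compared between genes per length, in the authors' FPKM. In both groups the order began with Nfkbia, Rela, Nfkbib, Nfkb2, Nfkb1 and Relb, and the 3 libraries of neighbours in this order did not overlap within a group. This order depends on the deposited gene lengths, which were 1610 bases for Nfkbia, 2716 for Rela and 12061 for Nfkb1. By CPM, not divided by length, Nfkb1 was above Rela in both groups. The means of Nfkbia, Rela and Nfkb1 were 40.8, 53.6 and 58.1 CPM in controls, and 91.7, 47.0 and 58.1 CPM in Igf2 cKO libraries. Nfkbia and Rela were close in controls, at 25.2 ± 4.13 and 19.6 ± 1.09 FPKM (SD, n = 3), and far apart in Igf2 cKO libraries, at 56.7 ± 3.61 and 17.2 ± 0.814 FPKM (SD, n = 3). Nfkbib stood at 11.5 and 12.4 FPKM in the respective groups, Nfkb2 at 8.09 and 6.71, Nfkb1 at 4.79 and 4.80, and Relb at 4.04 and 2.58. The low genes Tnfaip3, Nfkbiz, Nfkbie and Rel lay between 0.861 and 1.57 FPKM as group means, and within each group neighbours among them overlapped.

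The sum of the 3 cytoplasmic inhibitors was carried by Nfkbia. Nfkbia, Nfkbib and Nfkbie together stood at 38.0, 43.5 and 32.5 FPKM in the controls, against 67.8, 67.5 and 74.6 FPKM in Igf2 cKO libraries. The 5 subunit genes together stood at 38.8, 38.5 and 35.7 FPKM in the controls, against 32.3, 33.2 and 32.2 FPKM in Igf2 cKO libraries. The groups did not overlap in either sum, which lay in opposite directions. The ratio of inhibitor to subunit RNA was 1.01 ± 0.112 (SD, n = 3) in controls and 2.15 ± 0.150 (SD, n = 3) in Igf2 cKO libraries. Nfkbia made up 66.2% ± 1.54 of the inhibitor sum in controls and 81.0% ± 0.638 in Igf2 cKO libraries (SD, n = 3). Within the subunit sum, Relb made up 10.8% ± 0.958 in controls and 7.93% ± 1.50 in Igf2 cKO libraries (SD, n = 3), and Rela made up 52.1% and 52.9%. These sums contain the values the set was chosen on, so they are given without a test. The sums, the ratio and the shares also depend on the deposited gene lengths. They are sums of RNA and say nothing of protein, whose level for IkB alpha depends on degradation.

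**Figure D3:**
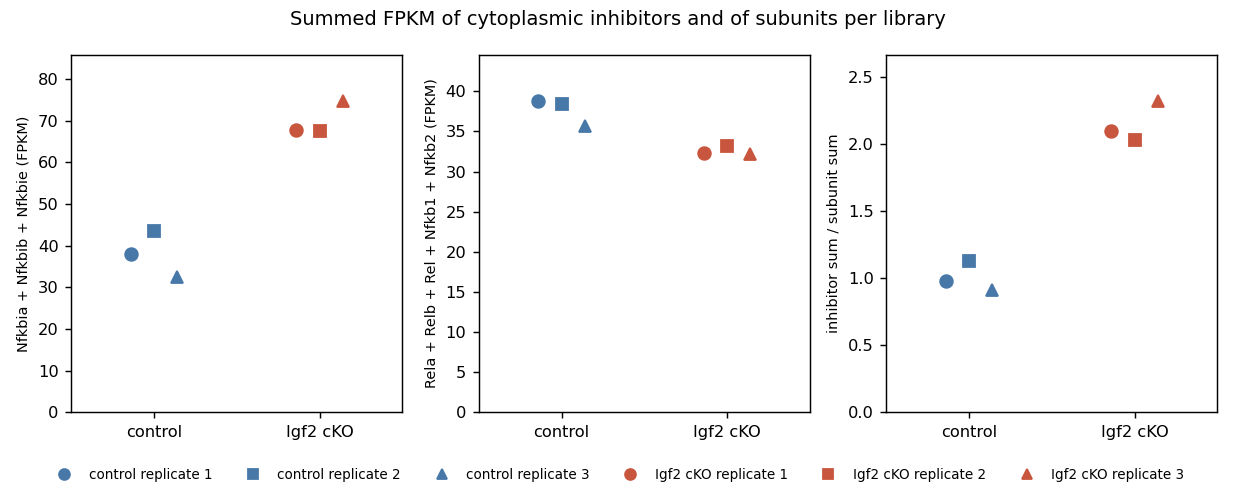
Summed FPKM of the cytoplasmic inhibitor genes (left), of the 5 subunit genes (middle) and their ratio (right) in each library, with points coloured by genotype and shaped by replicate number. The ratio lies between 0.910 and 1.13 in controls and between 2.03 and 2.32 in Igf2 cKO libraries.

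The genes above and below NF-kB in the pathway were tested by list, with some genes on more than 1 list. Of the 102 tested genes of the 8 NF-kB lists, 0 were called by edgeR at an adjusted p under 0.05. The background is 0.182% higher and 0.0673% lower, so counts of 0 in lists of this size say little. At an unadjusted p under 0.05, 3 were higher and 8 lower, beside 5.11% and 4.82% of all genes, and no lean of the lists is read from these counts. DESeq2 called 1 of them and limma-voom 0, beside 1.35% and 0.229% of all genes, which is near the background. The median log2 fold change of these 102 genes was -0.05, with 38 above and 64 below 0.

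Most of the activating ligands were too low to test, with 4 of 12 passing the filter and 0 called. Tnf, the cytokine tumour necrosis factor, had 11, 10 and 7 counts in controls and 3, 0 and 3 in Igf2 cKO libraries. Il1b, the gene of interleukin-1 beta, had 3, 13 and 1 counts in controls and 11, 5 and 4 in Igf2 cKO libraries. Both were named after their values were seen and are near the detection limit. The tested ligands with the smallest p were Il18, with a log2 fold change of -0.31 (edgeR adjusted p = 0.895), and Il33, with 0.13 (edgeR adjusted p = 0.908).

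Of 18 tested receptors 0 were called, and 13 of the 18 had log2 fold changes below 0 (median -0.23). Tlr3, the receptor of double-stranded RNA, stood at 9.74 ± 0.636 CPM in the controls, against 7.29 ± 0.641 CPM in Igf2 cKO libraries (SD, n = 3). Its log2 fold change was -0.42 ± 0.14 (SE; edgeR adjusted p = 0.372). Tlr6, a receptor of bacterial lipopeptides, had a log2 fold change of -1.05 ± 0.38 (SE; edgeR adjusted p = 0.397). Of 28 adaptors and upstream kinases 0 were called, with a median of -0.03. The smallest p among them belonged to Ticam1, the adaptor of Tlr3, at 0.39 ± 0.16 (SE; edgeR adjusted p = 0.478), and to Map3k8, a kinase that is bound by the Nfkb1 precursor, at -0.51 ± 0.22 (SE; edgeR adjusted p = 0.506).

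The machinery that phosphorylates and degrades IkB proteins showed small differences. Of 5 IkB kinase genes 0 were called, with Ikbkb, the catalytic subunit of the canonical kinase, at -0.13 (edgeR adjusted p = 0.749) and the related kinase Tbk1 at -0.12 (edgeR adjusted p = 0.712). Of 8 genes of the ubiquitin ligase that marks IkB, or of factors that work with it, 0 were called. Rbx1, the RING subunit of the ligase, lay at 0.19 (edgeR adjusted p = 0.629) and Nedd8, its activating modifier, at 0.13 (edgeR adjusted p = 0.722). Bcl3, another nuclear IkB protein, was the 1 tested gene of its list, at -0.17 (edgeR adjusted p = 0.868).

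Other brakes on NF-kB were equally divided, with 10 genes above and 10 below 0 and 0 called. Cyld, a deubiquitinase that removes signalling chains, stood at 42.5, 43.0 and 47.0 CPM in the controls, against 35.8, 32.3 and 35.8 CPM in Igf2 cKO libraries. The groups did not overlap, and the log2 fold change was -0.35 ± 0.09 (SE; edgeR adjusted p = 0.253). Otulin, which removes linear ubiquitin chains, lay the other way at 0.41 ± 0.14 (SE; edgeR adjusted p = 0.375).

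Of 36 listed NF-kB target genes 23 could be tested and 0 were called, which at the background of 0.182% and 0.0673% says nothing particular about them. Among the tested targets 19 log2 fold changes were below 0 and 4 above, with a median of -0.17. Bcl2l1, which encodes the survival protein BCL-XL, stood at 39.0, 48.0 and 39.8 CPM in the controls, against 67.2, 81.2 and 63.4 CPM in Igf2 cKO libraries. Its groups did not overlap, and its log2 fold change was 0.74 ± 0.13 (SE; edgeR adjusted p = 0.0846). It was the target that DESeq2 called (adjusted p = 0.000295), and it was called by edgeR without the low-count filter (adjusted p = 0.00115). Ier3, an immediate early gene, lay the other way at -0.54 ± 0.16 (SE; edgeR adjusted p = 0.284). Il6, named after its values were seen, had 4, 6 and 2 counts in controls and 0, 0 and 2 in Igf2 cKO libraries and was not tested.

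Glucocorticoid-induced genes were listed beside the NF-kB genes because Nfkbia is also one of them by background knowledge, and the list was drawn up with earlier results of these libraries known, so it is not independent evidence of its direction. Of 20 tested, 7 rose and 0 fell in Igf2 cKO (edgeR adjusted p under 0.05; background 0.182% and 0.0673%), and the median log2 fold change was 0.86, with 18 above and 2 below 0. Well known members of the list that did not pass the test were named after their values were seen. Fkbp5 lay at 0.37, Klf9 at 0.01, Anxa1 at -0.03 and Pdk4 at -1.13 ± 0.68 (SE) on the log2 scale. Pdk4 varied widely in the Igf2 cKO libraries, at 116, 1159 and 274 CPM. Others that did not pass lay higher, with groups that did not overlap: Zbtb16 at 1.12, Mt1 at 0.99, Per1 at 0.79 and Klf15 at 0.55. Ddit4, an inhibitor of mTOR signalling, stood at 30.1, 31.9 and 27.5 CPM in the controls, against 236, 237 and 220 CPM in Igf2 cKO libraries. The groups were far apart, with a log2 fold change of 2.95 ± 0.11 (SE; edgeR adjusted p = 1.62e-05). Tsc22d3, a leucine zipper protein that mediates anti-inflammatory effects of the hormones, rose by 1.50 ± 0.18 on the log2 scale (SE; edgeR adjusted p = 0.0179). Cdkn1a, a cell cycle inhibitor, rose by 1.23 ± 0.14 (SE; edgeR adjusted p = 0.0156). Cebpb, a transcription factor, rose by 1.16 ± 0.11 (SE; edgeR adjusted p = 0.00718). Errfi1, a feedback inhibitor of the EGF receptor, and Sgk1, a serum- and hormone-induced kinase, rose by 1.29 and 0.97 (edgeR adjusted p = 0.0179 for each). The count of 7 changed with the libraries used. It was 1, 3 and 2 when control replicates 1, 2 and 3 were left out in turn, and 3 without Igf2 cKO replicate 3. Calls over all genes, 37 in the main fit, were 8, 15, 13 and 17 in these fits. Without Igf2 cKO replicate 2 the list count was 9, of which 8 were higher and 1 lower, beside 68 over all genes. With the replicate number as a block it was 5, beside 35 over all genes. Ddit4, Tsc22d3, Cdkn1a, Cebpb, Errfi1 and Sgk1 kept the sign of their log2 fold change in all 13 alternatives.

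**Figure D4:**
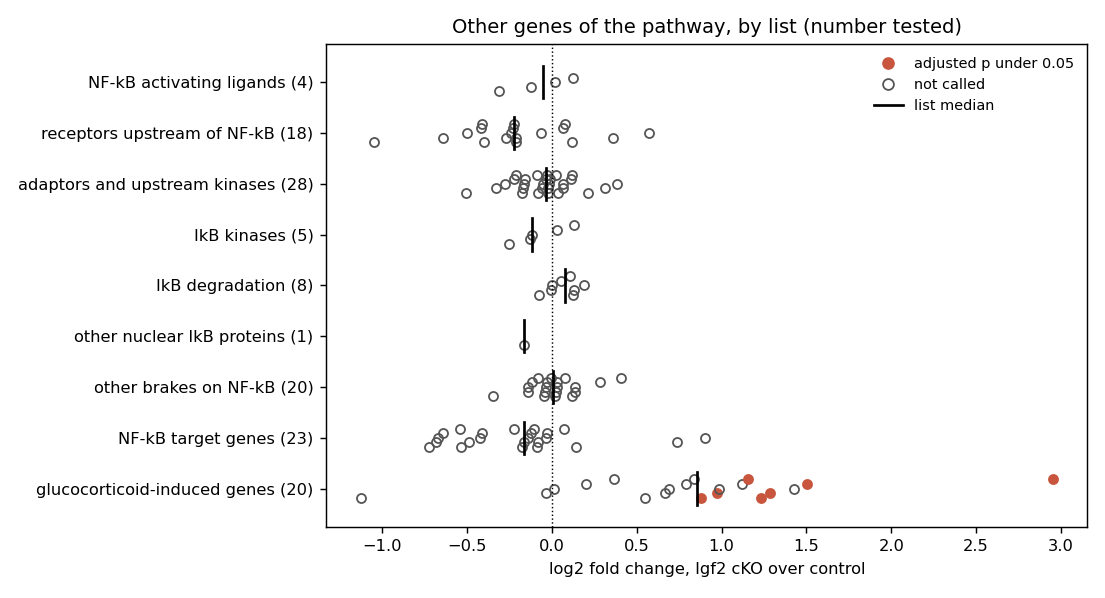
Log2 fold changes, Igf2 cKO over control, of the tested genes of each pathway list, with the number tested in parentheses. Filled points passed an adjusted p under 0.05 (edgeR), open points did not, and bars are list medians; filled points appear in the glucocorticoid-induced list, whose median is 0.86.

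The genes most like Nfkbia across the 6 libraries were found by the root-mean-square difference of log2 CPM, each gene centred on its own mean, among 9064 genes with a mean of at least 10 CPM. Among the closest 5 were Cebpb (0.0946), Errfi1 (0.137), Arrdc3 (0.153) and Sgk1 (0.153), against a median difference of 0.619 over all genes compared. The next gene followed closely at 0.156, so the limit of 5 marks no gap. Arrdc3, an arrestin-related adaptor, stood at 34.8, 31.7 and 26.4 CPM in the controls, against 84.5, 71.8 and 86.2 CPM in Igf2 cKO libraries. In Cebpb, Errfi1, Arrdc3 and Sgk1, as in Nfkbia, control replicate 3 was the lowest library and the groups did not overlap. Cebpb, Errfi1 and Sgk1 are also on the glucocorticoid-induced list. These genes were picked for a profile like that of Nfkbia, so their genotype difference here is a description. That list was drawn up with earlier results of these libraries known, so nothing is read from its overlap with these genes.

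**Figure D5:**
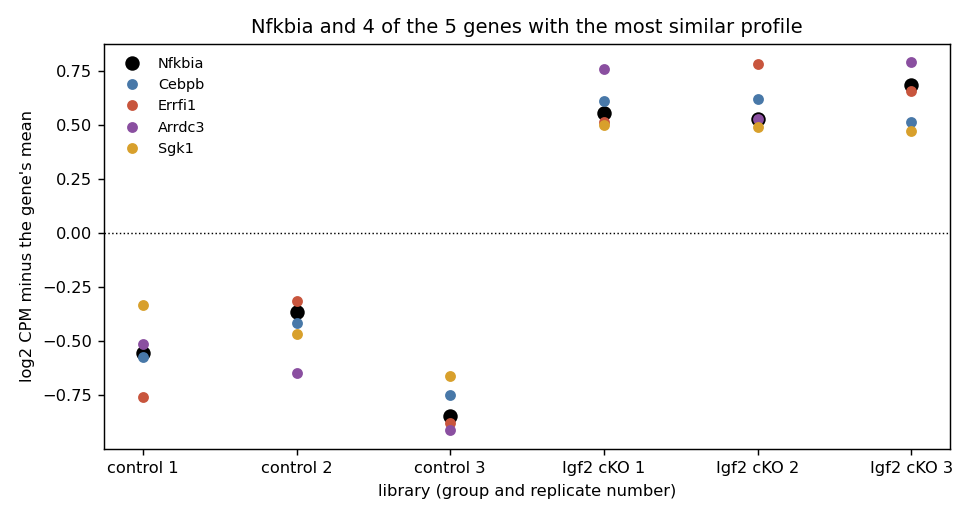
Log2 CPM of Nfkbia and of 4 of the 5 genes with the most similar profile, each centred on its own mean, in the 6 libraries. All 5 genes shown lie below 0 in the 3 control libraries and above 0 in the 3 Igf2 cKO libraries.

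Markers of other cell types were set beside these values. Macrophage markers (12 of 12 tested, 0 called, 11 below 0), led by Lyz2 and C1qa, summed to 209 to 406 FPKM in controls and 239 to 329 FPKM in Igf2 cKO libraries, and control replicate 3 was the lowest of all 6. Lymphocyte markers (4 of 13 tested, 0 called) summed to 2.88 to 4.16 FPKM in controls and 1.23 to 2.08 FPKM in Igf2 cKO libraries without overlap, and Cd3d, Trac, Cd8a and Ncr1 were at 0 in some libraries. Neutrophil markers (3 of 7 tested, 0 called) summed to 3.28 to 6.82 FPKM in controls and 2.31 to 5.07 FPKM in Igf2 cKO libraries, with Ly6g and Mmp8 at 0 in some. Endothelial markers (10 of 10 tested, 0 called) summed to 313 to 371 FPKM in controls and 243 to 339 FPKM in Igf2 cKO libraries. Erythroid markers (5 of 6 tested, 0 called), led by Hbb-bs, summed to 565 to 777 FPKM in controls and 396 to 450 FPKM in Igf2 cKO libraries without overlap. Fibroblast markers (8 of 8 tested, 0 called) summed to 645 to 1401 and 794 to 1139 FPKM, adipocyte markers (7 of 7 tested, 0 called) to 159 to 467 and 218 to 898 FPKM, Schwann cell markers (6 of 6 tested, 0 called) to 84.5 to 218 and 97.0 to 357 FPKM, and satellite cell markers (4 of 4 tested, 0 called) to 8.42 to 10.5 and 9.79 to 10.5 FPKM. Log2 fold changes were below 0 for 3 of the tested lymphocyte, 2 neutrophil, 7 endothelial, 5 erythroid and 7 fibroblast markers. They were above 0 for 7 adipocyte, 6 Schwann cell and 3 satellite cell markers. An unadjusted p under 0.05 (edgeR) was reached by 5 erythroid, 3 endothelial, 2 lymphocyte, 1 macrophage and 1 satellite cell markers. It was reached by 0 markers of the other lists, beside 5.11% higher and 4.82% lower of all genes. The lymphocyte and erythroid sums were lower in Igf2 cKO, as were Relb, Rela and Nfkbie. However, the lymphocyte markers were mixed. Cd4 lay at 1.10 on the log2 scale (edgeR adjusted p = 0.655), against 3 tested markers below 0. Among the untested ones, Cd3e and Cd3g had a higher mean FPKM in Igf2 cKO and the others a lower one, all from few reads. The lower lymphocyte sum is therefore not read as fewer lymphocytes. The part of these cell types in the values of Relb, Rela and Nfkbie was not tested.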

How the data were processed

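RNA of 3 control and 3 Igf2 cKO muscle samples was extracted with Trizol and sequenced on an Illumina NovaSeq by an outside provider, per the labels' protocols. Aligner, counter and strand setting were not given in the sources used here. The deposited table holds raw counts and FPKM per gene and library, per the file headers. It also holds the authors' log2 fold changes with p-values for 3 comparisons of 1 library against 1, of which the log2 fold changes are quoted. Another 6 columns of per-sample values were not used here. Coordinates of 9 of the 10 genes equal those of GENCODE M21 (GRCm38), and those of Nfkb2 differ.

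Counts were tested with the edgeR 4.0.16 quasi-likelihood F test in R 4.3.3, with TMM factors, filterByExpr and Benjamini-Hochberg adjustment over 14867 genes. Total counts per library were 16184371 to 17905203. Precision was limited by the spread between 3 samples per group and, for low genes, by these counts. The members and lists were chosen with earlier results of these data known. Genes named were all 10 members, up to 6 called genes per list by smallest p (or the top 2 by p in lists with under 2 calls), the 5 genes most like Nfkbia (log2 CPM, prior count 2; 1 of them is not reported here), and at most 2 markers per cell type. Alternatives were other size factors, other filters, DESeq2 1.42.0, voom of limma 3.58.1, a replicate block, other thresholds and leaving out each library. No pair of libraries agreed within sampling noise. The fit was tested on simulated counts. Figures were drawn with matplotlib in Python.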

Additional observations from a re-analysis of the deposited data

How the results depend on the processing

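The count of called genes, 37, was 34 to 39 with other size factors, a CPM minimum or limma-voom. It was 282 without the low-count filter, 203 with DESeq2, 62 at an adjusted p under 0.1 and 235 by the rule of the series (a log2 fold change over 1 in size with an unadjusted p under 0.05). Leaving out each library in turn gave 8 to 68 calls. Over all lists together 7 genes were called, all of them on the glucocorticoid-induced list and 0 on the NF-kB lists. This count was 13 without the filter, 11 with DESeq2 and 1 to 9 with each library left out.

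Deviations of same-numbered libraries correlated at 0.16, 0.06 and -0.04, and those of differently numbered libraries at -0.18 to 0.12. With 3 libraries per group this cannot tell whether the replicate numbers pair the libraries. With the replicate number as a block, 35 genes were called, among them 6 on the lists. Of these, 5 were on the glucocorticoid-induced list and 1 on the list of NF-kB targets. Under that block Tsc22d3 was not called (adjusted p = 0.057) and Bcl2l1 was (adjusted p = 0.0448).

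Of the 10 NF-kB genes, 9 kept the sign of their log2 fold change in the 13 alternatives, and Nfkb1, near 0, lay between -0.06 and 0.04 with each library left out. In the same fits Rel lay between 0.07 and 0.48, Nfkbib between 0.04 and 0.20 and Nfkbie between -0.68 and -0.36. Signs turned for a pair of ligands: Il33 lay between -0.041 and 0.333 and Il18 between -1.09 and 0.00404 with each library left out, turning without Igf2 cKO replicate 2 and, for Il33, also without control replicate 3. Depth limits Tnf, Il1b and Il6, which had at most 13 counts in a library.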
